A study of Mus musculus with 4 samples.

Results

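The BCL2 family genes described here are 10 rows, picked by gene symbol, of the 53379 genes listed in the expression table of small intestinal group 3 innate lymphoid cells (ILC3s). Of these, 4 encode pro-survival proteins (Bcl2, Bcl2l1, Mcl1 and Bcl2a1b), a pair encodes the pore-forming effectors (Bax and Bak1), and the others encode BH3-only proteins (Bcl2l11, Bbc3, Pmaip1 and Bid). The cells came from mixed bone marrow chimeras, and the comparison asked what loss of Brg1, the ATPase of the SWI/SNF chromatin remodelling complex encoded by Smarca4, does to these transcripts when both genotypes share a host. Control marrow was Thy1.2/1.2 and Rag1-/-Smarca4 f/f, with no Cre. Brg1-deficient marrow was Thy1.1/1.2 and Rag1-/-Smarca4 f/f with a Cre transgene. Equal numbers of cells of both went into Rag2-/-Il2rg-/- recipients after a sublethal dose of irradiation. Donor cells of both groups therefore lacked Rag1 and carried the floxed alleles. The Thy1.1 marker, Cre itself and the loss of Brg1 occurred together in a single group and cannot be told apart. Donor-derived ILC3s were sorted from the lamina propria 6 to 7 weeks later as Thy1.2high CD45low cells, and Thy1.1 separated the genotypes. Each group had 2 libraries, described as biological duplicates, and the age of the mice was not given in the sources used here.

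The BCL2 family sets the threshold for the mitochondrial route to apoptosis. BH3-only proteins carry stress and cytokine-withdrawal signals, pro-survival members hold these proteins and the effectors in check, and freed BAX and BAK permeabilise the outer mitochondrial membrane so that cytochrome c leaves and caspases are activated. Lymphocytes and innate lymphoid cells depend on IL-7 and related cytokines, whose signals act in part through BCL2 and MCL1. Much of the regulation of MCL1, BID, BAX and BAK acts on the protein, which transcript levels do not show.

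Values were FPKM, the fragments assigned to a gene per length of transcript and per size of the library. Levels of different genes are set side by side on this scale. Differences between genes in how well they were primed and amplified are not removed by it and were not examined. Smarca4 was at 17.1 and 16.7 FPKM in control ILC3s against 9.98 and 9.03 FPKM in Brg1-deficient ILC3s. The Brg1-deficient mean was 56.2% of the control mean (log2 fold change -0.77, limma adjusted p = 0.153), so the deleted gene itself did not pass the adjusted threshold. These values are for the whole gene and do not single out the floxed part. For mice of the Brg1-deficient donor genotype, outside the chimeras, the paper reports efficient loss of Brg1 from ILC3s by RT-PCR and flow cytometry. Il7r, the IL-7 receptor gene of these cells, was at 433 and 542 FPKM in the controls against 486 and 583 FPKM in Brg1-deficient ILC3s. Control library 1 had the largest sums of ILC2 and T cell markers, but not of ILC1 and NK or B cell markers. Its 9 ILC2 markers summed to 366 FPKM, against 207 in control library 2 and 116 and 141 in the Brg1-deficient libraries. Of the 8 ILC2 markers tested, 7 were lower in both Brg1-deficient libraries than in both controls, and the other, Hpgds, was higher, at 2.31 and 6.61 FPKM against 20.6 and 19.9 FPKM. The 7 T cell markers summed to 135 FPKM in control library 1, against 59.6, 34.6 and 45.2 in the same order. Of the 6 tested, 4 were lower without overlap. Over all genes tested, 20.2% were lower and 24.4% higher without overlap. Markers of ILC1 and NK cells also differed by genotype: 2 of the 9 tested were higher and 4 lower without overlap. Both that passed the adjusted threshold fell, Ncr1 from 31.3 and 35.5 FPKM to 5.37 and 6.02 FPKM (limma adjusted p = 0.0330) and Ifng from 22.8 and 37.3 FPKM to 3.42 and 3.22 FPKM (limma adjusted p = 0.0386). Of the B cell list only Cd79b was tested, and it fell from 8.68 and 10.02 FPKM to 1.03 and 0.99 FPKM (limma adjusted p = 0.0386), while Ms4a1 and Pax5 were below 0.4 FPKM in every library. The monocyte and macrophage markers had larger sums in both libraries numbered 2. The sums were 124 and 273 FPKM in control libraries 1 and 2 and 85.7 and 247 FPKM in Brg1-deficient libraries 1 and 2. Lyz2 made up most of them, at 84.1 and 203 FPKM in the controls and 64.4 and 192 FPKM in Brg1-deficient ILC3s. Csf1r, Cd68 and C1qa were also higher in both libraries numbered 2. Adgre1 and Itgam instead were lower in both Brg1-deficient libraries than in both controls. Brg1-deficient library 1 had the largest sum of the 10 proliferation genes, 277 FPKM, against 214, 181 and 202 in control libraries 1 and 2 and Brg1-deficient library 2. The part these marker differences have in the members' values was not tested. In bulk RNA, fewer cells of a type and less RNA per cell cannot be told apart. The donors lacked Rag1 and the recipients Rag2, and the paper describes Rag1-/- mice as lacking T and B cells. The T and B cell lists are therefore names of marker genes, and such cells need not be present.

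Sequences are shown first for the gene whose value is least certain. Bcl2a1b lies in a cluster of near copies that encode A1, a pro-survival protein of activated leukocytes. The coding sequences of Bcl2a1b and Bcl2a1d differed at 6 of 519 bases and those of Bcl2a1b and Bcl2a1a at 11. The stretch shown is 90 bases long, the read length in the labels, and was picked for the most positions at which the 3 genes differ. It is coding bases 1 to 90 of the GENCODE M21 transcripts on GRCm38 and holds 6 such positions, here in capitals. Other stretches hold no more.

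Bcl2a1b: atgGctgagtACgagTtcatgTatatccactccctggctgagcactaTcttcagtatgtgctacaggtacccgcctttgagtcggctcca
Bcl2a1a: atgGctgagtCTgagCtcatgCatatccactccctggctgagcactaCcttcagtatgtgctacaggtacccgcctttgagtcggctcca
Bcl2a1d: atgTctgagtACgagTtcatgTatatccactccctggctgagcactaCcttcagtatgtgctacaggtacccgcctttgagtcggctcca

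A read that spans no differing position could come from any of the 3 genes. Of the 90-base windows in Bcl2a1b transcripts, 61.5% also occurred in transcripts of another gene, namely Bcl2a1a, Bcl2a1d or the overlapping gene Gm29094. That share was 0 for Bcl2l1, Mcl1, Bcl2l11, Bbc3 and Pmaip1, 4.51% for Bcl2, 5.9% for Bax, 10.7% for Bak1 and 15.3% for Bid. The study's methods also mention 50-base reads, and with windows of that length the share was 79.2% for Bcl2a1b, 17.1% for Bak1 and 16.4% for Bid. The value of Bcl2a1b therefore depends on how ambiguous reads were divided, whereas most windows of the other members were their own.

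The promoters printed next belong to Bcl2l1 and Bax, the pair of members with the smallest p-values. They are the 250 bases before the RefSeq start on GRCm38.p6, both on the minus strand. Capitals mark a match to the E-box CACGTG, bound by MYC and related factors, or to the p53 half-site. The Bcl2l1 promoter is at chr2:152831729-152831978 and the Bax promoter at chr7:45466899-45467148.

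Bcl2l1: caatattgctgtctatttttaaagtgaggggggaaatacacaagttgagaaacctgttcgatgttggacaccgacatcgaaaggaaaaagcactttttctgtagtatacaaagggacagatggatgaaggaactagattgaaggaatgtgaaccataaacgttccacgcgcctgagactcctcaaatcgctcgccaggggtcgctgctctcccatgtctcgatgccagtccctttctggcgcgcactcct
Bax: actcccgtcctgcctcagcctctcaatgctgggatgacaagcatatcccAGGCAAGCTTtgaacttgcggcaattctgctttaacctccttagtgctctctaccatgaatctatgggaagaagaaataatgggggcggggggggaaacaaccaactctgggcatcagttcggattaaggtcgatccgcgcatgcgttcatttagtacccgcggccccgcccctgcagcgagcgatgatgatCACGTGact

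In the Bax promoter the E-box lay 9 bases and the p53 half-site 201 bases before the start. The Bcl2l1 promoter held neither, and neither promoter held the STAT motif TTCNNNGAA or the AP-1 motif TGANTCA. Both strands were searched in 32851 promoters of the same length, and the p53 half-site occurred in 7.13%, the STAT motif in 7.02%, the AP-1 motif in 6.75% and the E-box in 6.02% of them. RefSeq promoters were found for 9 of the 10 members. Of those 9, the AP-1 motif occurred in the Bcl2a1b promoter alone, the E-box and the p53 half-site in that of Bax alone, and the STAT motif in none.

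All 10 members passed the filter, a group average over 1 FPKM, and were read out of a limma fit on log2(FPKM + 1) over 14739 genes. At an adjusted p under 0.05 (Benjamini-Hochberg over these genes), 0 of 10 members were called, where 0.305% of all genes tested were. At an unadjusted p under 0.05 there were 2, Bcl2l1 and Bax, both higher in Brg1-deficient ILC3s, against 12.6% of all genes tested in either direction and 6.12% in the higher direction. The groups did not overlap for 6 members, of which 2 were higher (Bcl2l1 and Bax) and 4 lower (Bcl2, Mcl1, Bcl2l11 and Bid) in Brg1-deficient ILC3s, and 44.6% of all genes tested were separated in this way (24.4% higher and 20.2% lower). The median log2 fold change of the members was -0.08, and that of all genes tested was 0.03. The median size of the log2 fold change, without regard to sign, was 0.38 in the members and 0.25 over all genes tested. With 2 libraries a group, the 95% intervals of the members' log2 fold changes reached from 0.34 to 0.85 on either side of the estimate. These intervals are not adjusted for the number of genes and are not a limit of detection. Those of Bcl2l1 and Bax excluded 0, and neither gene was called.

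**Figure D1:**
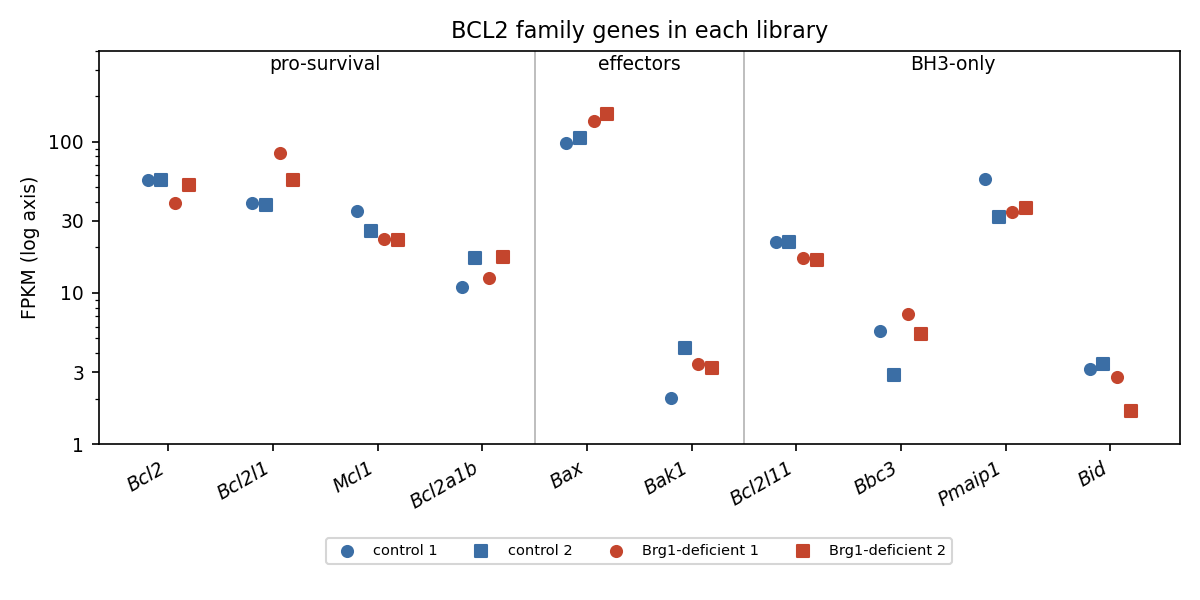
FPKM (log axis) of the 10 BCL2 family genes in each library, grouped by role, with controls in blue and Brg1-deficient libraries in red. Bcl2l1 and Bax sit higher in both Brg1-deficient libraries, and Bcl2, Mcl1, Bcl2l11 and Bid sit lower in both.

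In control ILC3s the most abundant member was Bax, at a mean of 102 FPKM, and Bcl2 came next at 55.9 FPKM. Then came Pmaip1, Bcl2l1, Mcl1, Bcl2l11, Bcl2a1b, Bbc3, Bid and Bak1, the last at 3.17 FPKM. Neighbours in this order whose libraries overlapped were Bcl2 and Pmaip1, Pmaip1 and Bcl2l1, Bbc3 and Bid, and Bid and Bak1. Among all genes tested, the control level of Bax stood at the 93.4th percentile, that of Bcl2 at the 87.6th and that of Bak1 at the 32.7th. In Brg1-deficient ILC3s Bax was again the most abundant and Bcl2l1 stood above Bcl2, with means of 145, 70.1 and 45.4 FPKM for Bax, Bcl2l1 and Bcl2. Pmaip1, Mcl1, Bcl2l11, Bcl2a1b, Bbc3, Bak1 and Bid followed, and only Bcl2l11 and Bcl2a1b overlapped with each other as neighbours. These orders compare levels between genes within a group.

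Among the pro-survival members, Bcl2l1 was higher and Bcl2 and Mcl1 were lower in both Brg1-deficient libraries than in either control, and none of these differences passed the adjusted threshold. Bcl2l1 (chr2:152780668-152831728, minus strand, GRCm38) encodes BCL-XL, which binds BAX, BAK and several BH3-only proteins. It was at 39.3 and 38.5 FPKM in control libraries 1 and 2 and at 84.6 and 55.6 FPKM in Brg1-deficient libraries 1 and 2. The controls lay within 1 FPKM of each other, the Brg1-deficient libraries lay far apart, and the groups did not overlap. The Brg1-deficient mean was 180% of the control mean, and the log2 fold change was 0.80 (SE 0.225, 95% interval 0.24 to 1.37, limma adjusted p = 0.245). Without Brg1-deficient library 1, the library with the highest proliferation sum, it was 0.51, and without library 2 of that group it was 1.10. The gene also gives a short splice form with the opposite function, and isoforms were not analysed here.

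Bcl2 (chr1:106538178-106714274, minus strand) encodes the founding pro-survival member. It was at 56.3 and 55.5 FPKM in the controls against 39.3 and 51.5 FPKM in Brg1-deficient libraries 1 and 2. The lower values were in the Brg1-deficient group, and library 2 of that group lay close to the controls. The mean was 81.2% of the control mean, with a log2 fold change of -0.31 (SE 0.177, 95% interval -0.75 to 0.14, limma adjusted p = 0.548). Without Brg1-deficient library 1 the log2 fold change was -0.12. An antisense gene, D630008O14Rik, shares 558 exon bases with Bcl2 and was at 14.8 and 10.5 FPKM in the controls and 5.78 and 7.07 FPKM in Brg1-deficient ILC3s. Whether the counting used strand was not given in the sources used here, so reads over those bases cannot be assigned with certainty.

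Mcl1 (chr3:95658788-95663176, plus strand) encodes a short-lived pro-survival protein on which many lymphocytes depend. It was at 34.8 and 25.9 FPKM in the controls against 22.9 and 22.3 FPKM in Brg1-deficient ILC3s. Control library 1 was the highest, and the groups did not overlap. The log2 fold change was -0.40 (SE 0.190, 95% interval -0.88 to 0.08, limma adjusted p = 0.479). Without control library 1, the library with the most ILC2 and T cell marker RNA, it was -0.19.

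Bcl2a1b (chr9:89199209-89207827, plus strand) was at 11.0 and 16.9 FPKM in the controls against 12.5 and 17.2 FPKM in Brg1-deficient ILC3s. Both libraries numbered 2, which also had the larger sums of monocyte and macrophage markers, were higher than both numbered 1, and the groups overlapped. Bcl2a1d, its near copy, was at 22.5 and 25.9 FPKM in the controls against 30.1 and 23.1 FPKM in Brg1-deficient ILC3s. Whether such cells were present, and any part of them in the level of Bcl2a1b, was not tested. The log2 fold change of Bcl2a1b was 0.10 (SE 0.271, 95% interval -0.58 to 0.78, limma adjusted p = 0.907). Because of the shared sequence, Bcl2a1a, Bcl2a1b and Bcl2a1d were also summed. That sum was 36.9 and 49.4 FPKM in the controls and 43.3 and 43.7 FPKM in Brg1-deficient ILC3s, with a log2 difference of 0.03 (exact two-sided permutation p = 1). With Gm29094, which shares 401 exon bases with Bcl2a1b on the same strand, the log2 difference was 0.18 (exact two-sided permutation p = 1). With 2 libraries against 2, such a test cannot give a p below 0.333.

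The pair of effector genes differed from each other in level by more than an order of magnitude, and Bax was the one that was higher in Brg1-deficient ILC3s. Bax (chr7:45461697-45466898, minus strand) encodes the effector that moves from the cytosol to mitochondria when activated. It was at 98.4 and 105 FPKM in the controls against 138 and 153 FPKM in Brg1-deficient ILC3s. Both Brg1-deficient libraries were above both controls, and the gap between the groups was wider than the distance within either. The mean was 142% of the control mean, with a log2 fold change of 0.50 (SE 0.137, 95% interval 0.16 to 0.85, limma adjusted p = 0.236). Leaving out any one library gave log2 fold changes from 0.43 to 0.58. The overlapping gene model Gm45808, which shares exon bases with Bax, was listed at 0 in every library.

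Bak1 (chr17:27019810-27029009, minus strand) encodes BAK, the effector that resides on mitochondria. It was at 2.01 and 4.33 FPKM in the controls against 3.40 and 3.19 FPKM in Brg1-deficient ILC3s. The controls lay on either side of the Brg1-deficient libraries. The log2 fold change was 0.10 (SE 0.338, 95% interval -0.75 to 0.95, limma adjusted p = 0.924).

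Of the BH3-only members, Bcl2l11 and Bid were lower in both Brg1-deficient libraries and Bbc3 and Pmaip1 overlapped between the groups. Bcl2l11 (chr2:128126038-128162547, plus strand) encodes BIM, a broad binder of pro-survival proteins that mediates death on cytokine withdrawal. It was at 21.6 and 21.9 FPKM in the controls against 17.0 and 16.5 FPKM in Brg1-deficient ILC3s. Replicates lay within 1 FPKM of each other in both groups, and the groups did not overlap. The mean was 77.1% of the control mean, with a log2 fold change of -0.36 (SE 0.149, 95% interval -0.73 to 0.02, limma adjusted p = 0.418). Leaving out any one library moved it only between -0.38 and -0.33.

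Pmaip1 (chr18:66458533-66465565, plus strand) encodes NOXA, which binds MCL1 and A1. It was at 56.7 and 31.9 FPKM in the controls against 34.4 and 36.4 FPKM in Brg1-deficient ILC3s. Control library 1 was high and the other libraries lay together, so the groups overlapped. The log2 fold change was -0.26 (SE 0.283, 95% interval -0.97 to 0.46, limma adjusted p = 0.740), and without control library 1 it was 0.15.

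Bbc3 (chr7:16308393-16318205, plus strand) encodes PUMA, a p53 target that binds all pro-survival members. It was at 5.59 and 2.88 FPKM in the controls against 7.28 and 5.34 FPKM in Brg1-deficient ILC3s. Control library 2 was the low one, and the groups overlapped. The log2 fold change was 0.52 (SE 0.325, 95% interval -0.30 to 1.34, limma adjusted p = 0.588), and without control library 2 it was 0.14.

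Bid (chr6:120891930-120916853, minus strand) encodes the protein that links death receptors to mitochondria once caspase-8 has cut it. It was at 3.15 and 3.38 FPKM in the controls against 2.77 and 1.65 FPKM in Brg1-deficient ILC3s. Brg1-deficient library 2 was the lowest, and the groups did not overlap. The log2 fold change was -0.43 (SE 0.285, 95% interval -1.15 to 0.28, limma adjusted p = 0.603), -0.18 without Brg1-deficient library 2 and -0.69 without library 1 of that group. Bid shares 628 exon bases with Bcl2l13 on the opposite strand, which was at 6.99 to 11.9 FPKM in the 4 libraries.

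**Figure D2:**
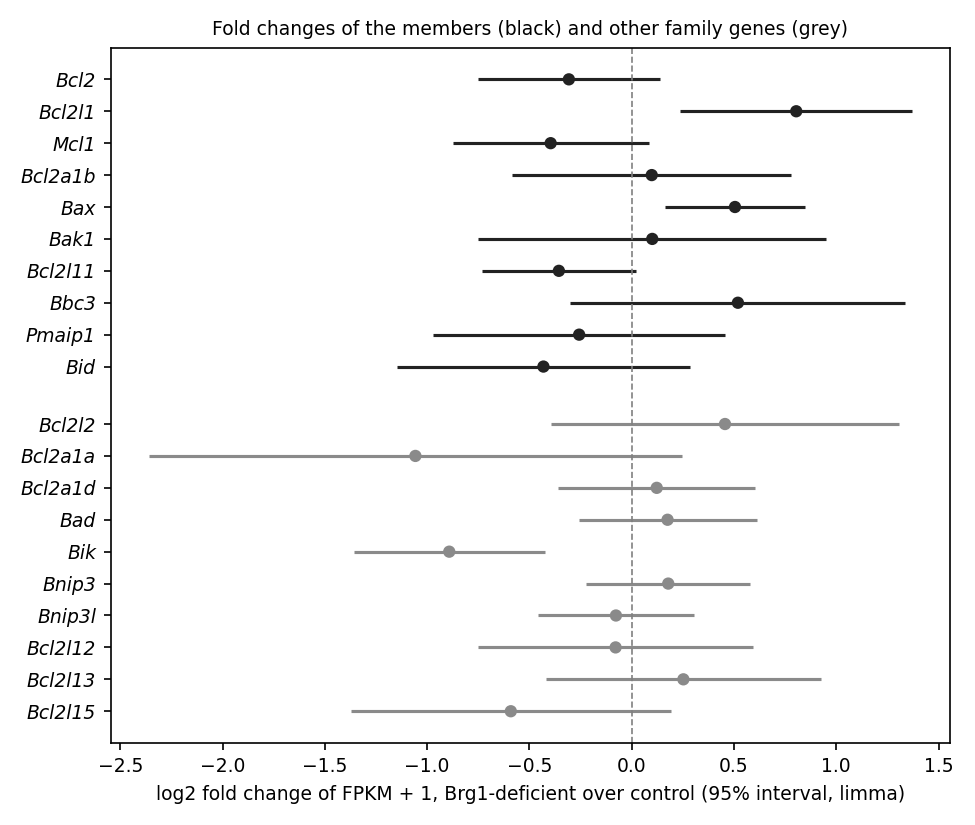
Log2 fold change of FPKM + 1 in Brg1-deficient over control ILC3s with the 95% interval from limma, for the 10 members (black) and the 10 other BCL2 family genes that were tested (grey). Among the members only the intervals of Bcl2l1 and Bax lie to one side of 0, before any adjustment for the number of genes.

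Because FPKM is per length, levels can be divided within a library. Such ratios do not depend on a single scaling factor per library, but they do depend on the step that gave all libraries nearly the same distribution of values. There were 6 such ratios. Bcl2 to Bax was 0.572 and 0.526 in the controls and 0.285 and 0.337 in the Brg1-deficient libraries, a log2 difference of -0.82 (exact two-sided permutation p = 0.333, the smallest possible). Both Brg1-deficient libraries were below both controls, and leaving out any one library gave log2 differences from -0.94 to -0.70. The summed pro-survival members to the summed BH3-only members came to 1.62 and 2.28 in the controls and 2.59 and 2.45 in the Brg1-deficient libraries, a log2 difference of 0.39 (exact two-sided permutation p = 0.333). Here the Brg1-deficient libraries were the higher ones, and control library 1 was the lowest. Leaving out any one library gave log2 differences from 0.14, without control library 1, to 0.63, without control library 2.

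The remaining 4 ratios overlapped between the groups. Bcl2 to Bcl2l11 was 2.61 and 2.54 in the controls and 2.30 and 3.13 in the Brg1-deficient libraries, a log2 difference of 0.06. The mean levels of both genes in Brg1-deficient ILC3s were a similar share of the control means, 81.2% and 77.1%. Log2 differences of Mcl1 to Pmaip1, Bcl2l1 to Bax and Mcl1 to Bcl2 were -0.15, 0.31 and -0.10. Bcl2l1 to Bax was 0.615 in Brg1-deficient library 1 and 0.365 in library 2, and the controls were at 0.399 and 0.365. The exact two-sided permutation p of these 4 ratios was 0.667 or 1. One more ratio, Bcl2 to Bcl2l1, was chosen after its values were seen and is given as a description. It was 1.43 and 1.44 in the controls and 0.464 and 0.926 in the Brg1-deficient libraries, so that Bcl2 was the more abundant in both controls and Bcl2l1 in both Brg1-deficient libraries. The log2 difference was -1.13, and leaving out any one library gave -1.63 to -0.64, the latter without Brg1-deficient library 1.

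**Figure D3:**
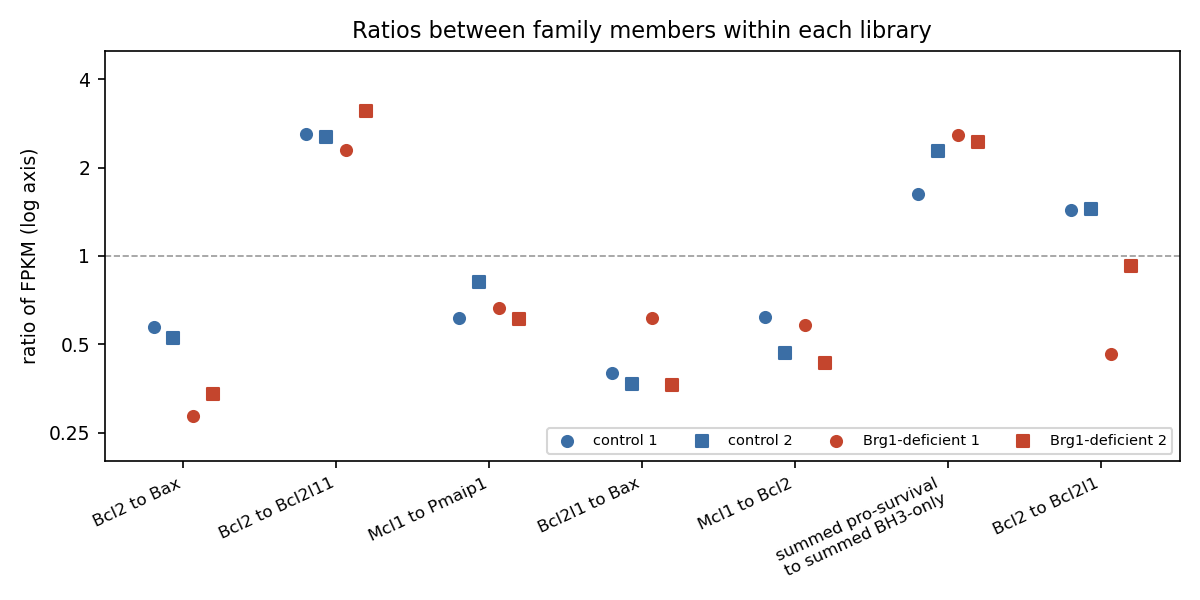
Ratios of FPKM between family members within each library (log axis), with controls in blue and Brg1-deficient libraries in red. Bcl2 to Bax and Bcl2 to Bcl2l1 sit lower in both Brg1-deficient libraries, the summed ratio sits higher in both, and the other 4 ratios overlap.

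Summed by role, the pro-survival members came to 141 and 137 FPKM in the controls and 159 and 147 FPKM in Brg1-deficient ILC3s. Effectors summed to 100.42 and 110 FPKM in the controls and 141 and 156 FPKM in Brg1-deficient ILC3s, nearly all of it Bax. BH3-only members summed to 87.0 and 60.0 FPKM in the controls and 61.5 and 59.9 FPKM in Brg1-deficient ILC3s. The first 2 sums were higher in both Brg1-deficient libraries. The BH3-only sum overlapped between the groups, with control library 1 above the rest. Within the pro-survival sum, the difference in mean FPKM was larger for Bcl2l1 than for Bcl2 and Mcl1 together, and of opposite sign.

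Of 16 other genes of the BCL2 family, 10 passed the filter, 0 of 10 were called, and the median log2 fold change was 0.02. Among the 10, 3 were higher and 3 lower without overlap of the groups, where 24.4% and 20.2% of all genes tested were. Bik, a BH3-only gene whose protein sits at the endoplasmic reticulum, was at 17.5 and 21.2 FPKM in the controls and 9.21 and 10.7 FPKM in Brg1-deficient ILC3s, a log2 fold change of -0.89 (SE 0.185, limma adjusted p = 0.149). Both Brg1-deficient libraries were near one level and both controls near another. Bcl2a1a was at 3.47 and 6.54 FPKM in the controls against 0.76 and 3.42 FPKM in Brg1-deficient ILC3s (log2 fold change -1.06, limma adjusted p = 0.486), with the same uncertainty of shared reads as Bcl2a1b. Bcl2l15 was at 1.76 and 2.37 FPKM in the controls against 0.88 and 1.18 FPKM in Brg1-deficient ILC3s, a log2 fold change of -0.59. The 6 that did not pass the filter, among them Hrk, Bmf and Bok, were at or below 1.40 FPKM in every library.

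Among 14 genes that act at or after the mitochondrial step, 13 were tested and 0 called, with a median log2 fold change of 0.06. Apaf1, the scaffold of the apoptosome, was at 13.3 and 15.4 FPKM in the controls against 11.3 and 11.9 FPKM in Brg1-deficient ILC3s, without overlap, and its log2 fold change was -0.29. All 5 inhibitors of apoptosis listed were tested, with 0 called and a median of 0.11. Birc3, which encodes the NF-κB-responsive cIAP2, was at 218 and 196 FPKM in the controls and 262 and 243 FPKM in Brg1-deficient ILC3s (log2 fold change 0.29, limma adjusted p = 0.475). The log2 fold changes of Birc6 and Xiap were -0.16 and 0.13.

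In the death receptor pathway 9 of 10 genes were tested and 0 called, with a median log2 fold change of -0.10. Without overlap 1 was higher and 4 were lower, where 24.4% and 20.2% of all genes tested were. Fas, the receptor for Fas ligand, was at 16.5 and 4.75 FPKM in the controls and 3.88 and 2.14 FPKM in Brg1-deficient ILC3s (log2 fold change -1.36, SE 0.561, limma adjusted p = 0.414). Control library 1, with the most ILC2 and T cell marker RNA, was far above the rest. Tnfrsf1a, a receptor for TNF, was at 5.25 and 9.07 FPKM in the controls and 2.80 and 2.95 FPKM in Brg1-deficient ILC3s (log2 fold change -1.03, SE 0.291, limma adjusted p = 0.247). The 2 Brg1-deficient values were alike, and both controls were higher. Fadd, the adaptor of these receptors, had a log2 fold change of 0.35.

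Among upstream regulators of the family (p53 and its ligase, FOXO factors, IL-7 receptor and STAT5, NF-κB subunits, MYC, and ligases and chaperones of family proteins), 17 of 19 genes were tested and 0 called. Without overlap 1 was higher and 7 were lower, where 24.4% and 20.2% of all genes tested were. The median log2 fold change was -0.16. Bag3, a co-chaperone that binds HSP70 and BCL2, was at 78.3 and 93.0 FPKM in the controls and 35.0 and 43.7 FPKM in Brg1-deficient ILC3s. Its controls were well above its Brg1-deficient libraries, with a log2 fold change of -1.11 (SE 0.178, limma adjusted p = 0.0995). Myc was at 10.5 and 8.97 FPKM in the controls and 5.04 and 4.83 FPKM in Brg1-deficient ILC3s (log2 fold change -0.85, SE 0.190, limma adjusted p = 0.171), again without overlap. Fbxw7, a subunit of a ligase that marks MCL1 and MYC for degradation, had a log2 fold change of -0.43.

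**Figure D4:**
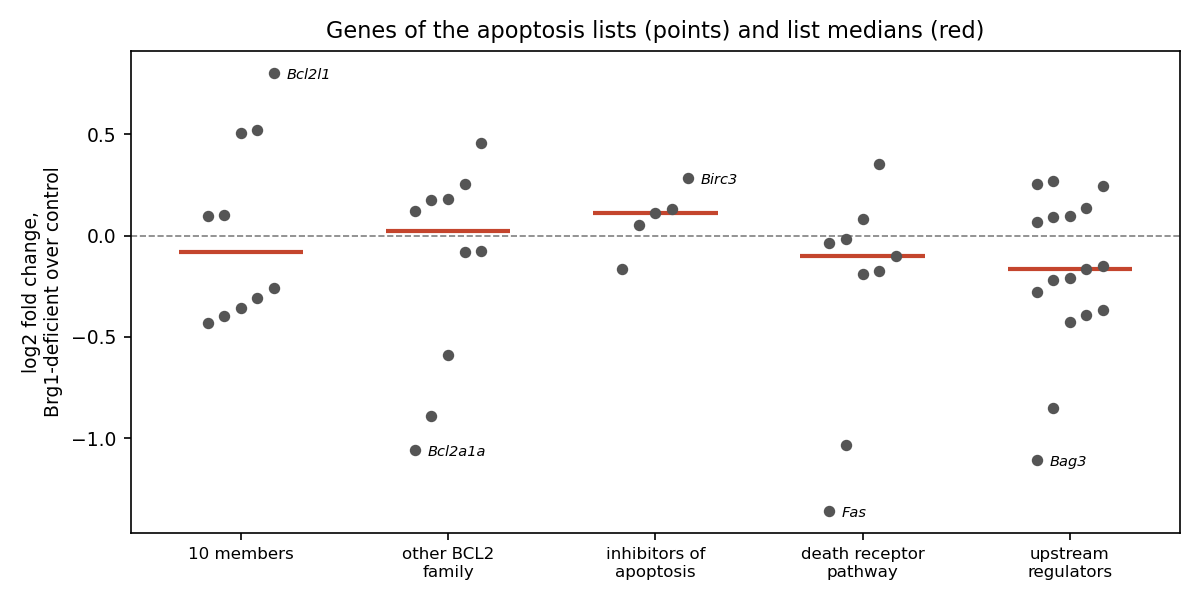
Log2 fold change of FPKM + 1 in Brg1-deficient over control ILC3s for each gene tested (points) and the median (red line) of the members and of 4 lists. The medians lie between -0.16 and 0.11, and the gene named in each list is the one farthest from 0.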

How the data were processed

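Total RNA of sorted ILC3s was reverse transcribed with oligo-dT, amplified and sequenced as single 90-base reads, per the labels. Per the labels and the study's methods, the authors aligned reads with STAR 2.5 to GRCm38.p5, quantified genes of the GENCODE M16 annotation with RSEM 1.2, and deposited one FPKM value per gene and library. Sorted within each library, these values hardly differed between libraries (by under 1% at 99.3% of the ranks whose mean was above 1). A step that makes them so is not given in the sources used here, and any difference in total RNA would not be seen. The depth of the libraries is unknown, so no interval for counting error was computed, and the precision rests on 2 libraries a group.

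Libraries were grouped by the genotype in their labels. The fit was limma 3.58.1 (R 4.3.3; eBayes with a trend) on log2(FPKM + 1), for genes that averaged over 1 FPKM in at least one group, with Benjamini-Hochberg adjustment over 14739 genes. On this scale the change of low genes is understated. The fit was tested on simulated data. The limma p-values set each group difference against the spread between these libraries, which was moderated over genes of similar level. The study's own test needs counts, and limma was used since the values were FPKM. Ratios were tested with exact permutation tests (scipy 1.17.1). Positions, transcripts and shared windows came from GENCODE M21 and promoters from RefSeq. The members and lists were chosen with earlier results of these data known. Genes named are all members and, of each list, any called and the 3 whose log2 fold change was farthest from 0, apart from items that are not reported here. Alternatives were a pseudocount of 0.1, no filter or a mean FPKM above 5, quantile normalization, scaling to TPM or by median ratios, limma without the trend, the replicate number as a block, and leaving out each library in turn.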

Additional observations from a re-analysis of the deposited data

How the results depend on the processing

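No member was called under any alternative. Bcl2l1, Bax and Bbc3 had positive and Bcl2, Mcl1, Bcl2l11 and Bid negative log2 fold changes under every alternative that gave a value (Bak1 and Bid gave none with a mean FPKM above 5). Direction turned for the others when 1 library was left out: Bcl2a1b ranged from -0.20 to 0.39 (-0.20 without control library 1, -0.12 without Brg1-deficient library 2), Bak1 from -0.31 to 0.51 and Pmaip1 from -0.66 to 0.15, the first of the Bak1 values and the second of the Pmaip1 values without control library 1. In the same fits the median of all members ranged from -0.19 to -0.026, that of the pro-survival members from -0.25 to 0.10, that of the BH3-only members from -0.37 to -0.11 and that of the upstream regulators from -0.33 to -0.046. The median of the death receptor genes was -0.14 with no filter, with a mean FPKM above 5 and with median ratio scaling. The cause was not tested.

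Over all genes, 12 were called higher and 33 lower in limma. The counts were 41 and 73 with a mean FPKM above 5 (fewer genes tested), and 0 and 0 with no filter, without the trend and on leaving out any library. At an unadjusted p under 0.05 these last fits held 2708, 1868 and 1267 to 3182 genes. The sources do not say whether libraries with one number came from the same recipients. Across genes, the deviations of such libraries from their group means correlated at -0.000386. A value over all genes cannot settle whether the libraries were paired, since single genes can still vary together. With the replicate block, 150 genes were called higher and 248 lower, 0 of 10 members and 1 upstream regulator (Bag3, chosen for mention after its value was seen, adjusted p = 0.0120 in limma). Of the members, Bcl2l1 had the smallest adjusted p with the block, 0.0735 in limma, against 0.245 without it. In the other apoptosis lists the block called none. Among ILC2 markers the block called 1 higher (Hpgds) and 3 lower, and among T cell markers 1 lower. Of the ILC1 and NK markers, 1 was called higher with the block beside the 2 lower. Of the ILC3 markers, 1 was called higher and 1 lower. Without the block none of the ILC2, T cell or ILC3 markers was called. Scaling to TPM or by median ratios left 2 members higher and 4 lower without overlap of the groups.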
